A study of Mus musculus with 6 samples.

Results

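Choroid plexus transcripts were followed through 6 libraries of mouse hippocampus, 3 from wild-type mice and 3 from Tet1-deficient mice. The members were the 10 gene symbols Ttr, Folr1, Kl, Clic6, Aqp1, Enpp2, Otx2, Sostdc1, Prlr and Slc4a5, and all 10 were found among the 23361 genes of the deposited table. They were chosen by symbol as known choroid plexus genes, and selected on the FPKM values of Ttr in these libraries, whose wide spread within each genotype had been seen. That spread is therefore a description and carries no test. The wild-type mice were Tet1+/+ and the Tet1-deficient mice were Tet1Δe4-/-, with an exon 4 deletion of Tet1, the gene of a dioxygenase that acts on methylated DNA, on both alleles. Every mouse had received electroconvulsive shock through the ears (18 mA, 100 Hz, pulses of 0.2 ms for 1.15 seconds), and the whole hippocampus was frozen 1.5 to 2 hours later. No unshocked mouse is analysed here, so nothing measures the shock itself, and the labels give no age or strain. Levels are FPKM, fragment counts scaled by transcript length and by library size, which allows levels of different genes to be set side by side.

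The choroid plexus is a folded epithelium that hangs in the brain ventricles and secretes cerebrospinal fluid. One of its fronds lies in the lateral ventricle against the fimbria, at the edge of the hippocampus, and can come along when the hippocampus is lifted out. Its epithelial cells make transthyretin, encoded by Ttr, in great amounts and carry ion, water and folate transporters that hippocampal neurons largely lack. Other genes of the epithelium, such as Enpp2 and Kl, are also known from cells of the brain tissue itself.

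Ttr set a pair of libraries apart, and the same pair was highest for the other members. Wild-type replicate 3 had 294 FPKM of Ttr and Tet1-deficient replicate 2 had 187 FPKM, while the other 4 libraries lay between 3.44 and 17.7 FPKM. All 10 members were highest in wild-type replicate 3 among the wild-type libraries and in Tet1-deficient replicate 2 among the Tet1-deficient libraries, a pattern shown by 16.8% of the 19123 genes above 0 in at least 1 library. With the columns rescaled by median of ratios or by quantiles the count was 9 of 10, and by median of ratios the member lost was Sostdc1. For 8 members these were also the highest 2 of all 6 libraries, against 11.8% of those genes, and the exceptions were Kl and Sostdc1. Ttr itself set the pair and was used for the selection, so its place in each of these counts was fixed in advance. One high library fell in each genotype, and for 0 of the 10 members did the genotypes separate (5.82% of genes above 0 had groups that did not overlap).

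The libraries were otherwise alike in scale. FPKM sums ran from 371014 to 390042 and the number of genes above 0 from 17395 to 17923, and read depth is unknown. Marker genes of hippocampal neurons were present throughout, with a sum over 10 genes of 1598, 1613 and 1539 FPKM in wild-type replicates 1 to 3 and of 1866, 1752 and 1730 FPKM in Tet1-deficient replicates 1 to 3. Among them Prox1, of dentate granule cells, was highest in Tet1-deficient replicate 2 (42.7 FPKM) and wild-type replicate 3 (34.8 FPKM), the pair with the most Ttr, against 21.1 to 33.4 FPKM elsewhere. Camk2a had the highest mean of the 10 genes, 10.2 in wild-type and 10.4 in Tet1-deficient libraries on the log2(FPKM + 1) scale. The sums of these markers lean on that gene. Wild-type replicate 1 and Tet1-deficient replicate 1 stood apart from the other 4 libraries on the first principal component (53.3% of the variance), a different pair from the one with the most Ttr. Wild-type replicate 1, the library with an f in its title, was also the one with Xist (63.5 FPKM, at most 0.202 FPKM elsewhere). Ddx3y, a gene of the Y chromosome, measured 0.0381 FPKM there and 16.7 to 35.2 FPKM elsewhere. Eif2s3y, Kdm5d and Uty, also of the Y chromosome, had the same split. By these genes that mouse was female and the others were male, so the sexes are mixed in the wild-type group only. The genotype comparisons do not adjust for sex. Wild-type replicate 3 is the only library with a b in its title, where the others have an a, and the labels do not explain these letters. Tet1 itself measured 0.977, 0.718 and 0.897 FPKM across wild-type libraries against 0.740, 0.685 and 0.638 FPKM across Tet1-deficient ones, and a level over the whole gene does not check the loss of an exon. The design counts 3 mice per genotype, and replicate numbers are only names given in accession order.

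Promoters are shown for members that differ in how far they spread between libraries. RefSeq promoter sequences on GRCm38.p6 matched 5 of the 10 members (Kl, Aqp1, Slc4a5, Otx2 and Prlr) at 10 annotated starts, and no sequence is shown for Ttr, Folr1, Clic6, Enpp2 and Sostdc1. The 250 bases upstream of a start are given 5′ to 3′ on the strand of the gene. Both strands were searched for TAATCC, the core motif of Otx factors. They were also searched for GTTGCC, a part of the site of the RFX factors of ciliated cells. Capitals mark a match. These motifs do not overlap each other. The first 3 windows belong to members whose libraries differed over 3-fold within both genotypes, and the last to a member where they did not.
Otx2: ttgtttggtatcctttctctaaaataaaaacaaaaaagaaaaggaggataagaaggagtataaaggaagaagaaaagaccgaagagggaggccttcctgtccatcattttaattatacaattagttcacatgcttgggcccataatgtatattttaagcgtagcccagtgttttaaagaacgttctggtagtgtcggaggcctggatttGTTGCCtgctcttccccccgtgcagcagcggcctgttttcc
Slc4a5: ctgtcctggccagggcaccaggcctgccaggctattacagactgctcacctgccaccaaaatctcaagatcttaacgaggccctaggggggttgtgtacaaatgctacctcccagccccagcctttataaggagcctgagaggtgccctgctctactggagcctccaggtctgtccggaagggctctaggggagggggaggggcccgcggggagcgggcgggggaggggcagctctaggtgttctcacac
Aqp1: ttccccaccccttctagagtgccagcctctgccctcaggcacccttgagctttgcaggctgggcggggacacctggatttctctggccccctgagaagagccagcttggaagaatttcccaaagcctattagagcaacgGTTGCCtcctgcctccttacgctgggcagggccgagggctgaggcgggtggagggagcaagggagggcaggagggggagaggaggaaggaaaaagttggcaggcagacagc
Kl: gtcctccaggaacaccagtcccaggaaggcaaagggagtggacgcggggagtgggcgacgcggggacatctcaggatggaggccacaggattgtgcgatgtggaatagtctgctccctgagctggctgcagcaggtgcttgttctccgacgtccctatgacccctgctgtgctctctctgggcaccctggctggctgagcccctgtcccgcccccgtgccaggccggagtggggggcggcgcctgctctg
The windows lie at chr14:48667645-48667894 (minus strand) for Otx2, chr6:83237125-83237374 (plus strand) for Slc4a5, chr6:55336049-55336298 (plus strand) for Aqp1 and chr5:150952357-150952606 (plus strand) for Kl. The Slc4a5 window overlaps an exon of a non-coding Slc4a5 transcript in GENCODE M21, and neither it nor the Kl window holds a match. GTTGCC was found at 3 of the 10 starts, in Aqp1 and at 2 of the 4 Otx2 starts, and 10.4% of 32851 promoter windows of this length hold it. The windows of these 2 Otx2 starts overlap and share a match, so the starts are not independent and the shares are not compared. TAATCC was found at 1 of the 10 starts, another Otx2 start that is not printed, and 6.3% of all windows hold it. A match here is a description of letters, and the absence of one says only that they are not in the window.

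**Figure D1:**
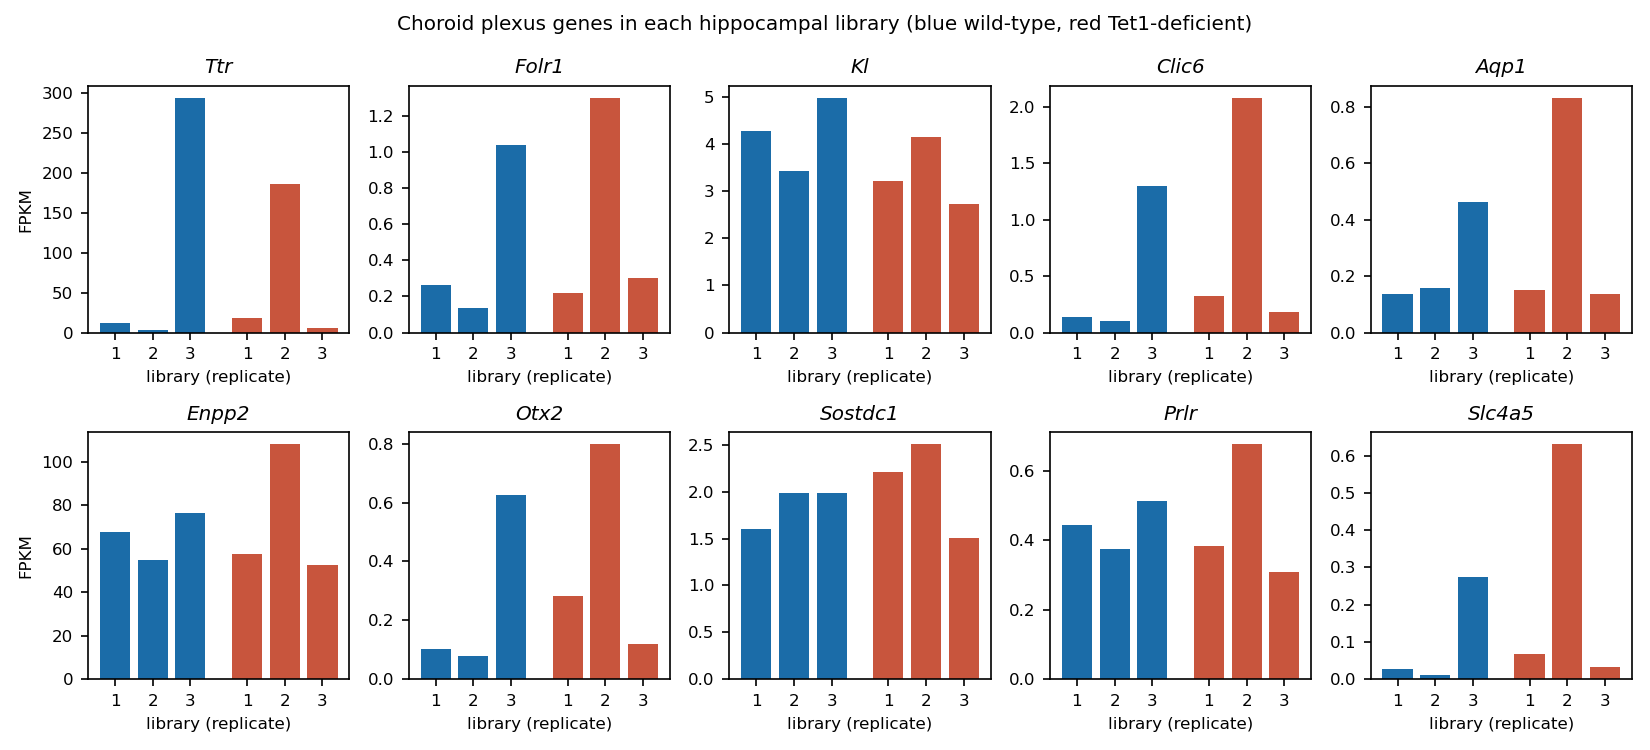
FPKM of each of the 10 members (one panel per gene, vertical axes from 0 and differing between panels) in the 3 wild-type (blue) and 3 Tet1-deficient (red) libraries, 1 bar per library. Wild-type replicate 3 and Tet1-deficient replicate 2 have the tallest bars of their genotype in every panel, with Ttr at 294 and 187 FPKM.

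Genes of secreted proteins included the most abundant members. Ttr, the carrier of thyroid hormone and retinol-binding protein in cerebrospinal fluid, measured 11.7, 3.44 and 294 FPKM in wild-type replicates 1 to 3 and 17.7, 187 and 5.85 FPKM in Tet1-deficient replicates 1 to 3. The highest library exceeded the lowest 85.5-fold in wild-type and 31.9-fold in Tet1-deficient hippocampus. Counted down from the most abundant gene, Ttr was number 159 in wild-type replicate 3 and number 322 in Tet1-deficient replicate 2. It was number 4373 in Tet1-deficient replicate 1, 5929 in wild-type replicate 1, 8428 in Tet1-deficient replicate 3 and 10014 in wild-type replicate 2. In a bulk library more choroid plexus cells and more RNA per cell cannot be told apart.

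Enpp2 encodes autotaxin, the secreted enzyme that makes lysophosphatidic acid, and is known from oligodendrocytes as well as from choroid plexus. It measured 67.5, 54.6 and 76.6 FPKM across wild-type libraries against 57.7, 108 and 52.7 FPKM across Tet1-deficient ones. Its lowest library thus had more Enpp2 than any library had of the other members except Ttr. The highest library exceeded the lowest 1.40-fold in wild-type and 2.05-fold in Tet1-deficient hippocampus. Mbp, a myelin gene, measured 1592 to 2016 FPKM across wild-type libraries, and Tet1-deficient replicates 1, 2 and 3 had 1652, 1985 and 2350 FPKM. The 10 oligodendrocyte markers together summed to 3221, 3729 and 4211 FPKM in the same 3 libraries. In wild-type replicates 1 to 3 their sum was 3547, 3787 and 3622 FPKM. Of the 10, 0 were highest of their genotype in both libraries with the most Ttr, against 16.8% of all genes above 0. The part of oligodendrocytes in the level of Enpp2 was not tested.

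Sostdc1, whose product is a secreted antagonist of BMP and Wnt signals, varied little. It measured 1.60, 1.99 and 1.99 FPKM across wild-type libraries against 2.22, 2.51 and 1.51 FPKM across Tet1-deficient ones. Wild-type replicates 2 and 3 were equal to 2 decimals, and Tet1-deficient replicate 1 came second of all 6.

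The gene Kl encodes klotho, the co-receptor of the hormone FGF23 that is also shed into cerebrospinal fluid, and it too spread little. It measured 4.27, 3.43 and 4.97 FPKM across wild-type libraries against 3.20, 4.14 and 2.73 FPKM across Tet1-deficient ones, and wild-type replicate 1 exceeded Tet1-deficient replicate 2. The ratio of highest to lowest was 1.45 in wild-type and 1.52 in Tet1-deficient hippocampus.

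The receptor genes behaved differently. Folr1, the folate receptor through which the epithelium passes folate to the cerebrospinal fluid, measured 0.262, 0.134 and 1.04 FPKM across wild-type libraries against 0.218, 1.30 and 0.304 FPKM across Tet1-deficient ones. Its ratio of highest to lowest was 7.73 and 5.97. Prlr, the prolactin receptor gene, measured 0.446, 0.374 and 0.513 FPKM across wild-type libraries against 0.384, 0.677 and 0.309 FPKM across Tet1-deficient ones, with ratios of 1.37 and 2.19. Prlr in wild-type replicate 1, the library with Xist, lay between the other wild-type libraries.

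Transport genes and the transcription factor gene Otx2 had far higher levels in the pair with the most Ttr. Clic6, of the chloride intracellular channel family, measured 0.136, 0.106 and 1.29 FPKM across wild-type libraries against 0.326, 2.08 and 0.184 FPKM across Tet1-deficient ones. Slc4a5, a sodium bicarbonate cotransporter gene, measured 0.0282, 0.0117 and 0.273 FPKM across wild-type libraries against 0.0673, 0.631 and 0.0331 FPKM across Tet1-deficient ones. Aqp1, the water channel of the apical membrane, measured 0.136, 0.159 and 0.462 FPKM across wild-type libraries against 0.152, 0.833 and 0.135 FPKM across Tet1-deficient ones. Outside the pair with the most Ttr none of these 3 genes exceeded 0.326 FPKM. Otx2, which choroid plexus cells need in order to form, measured 0.103, 0.0770 and 0.627 FPKM across wild-type libraries against 0.282, 0.798 and 0.121 FPKM across Tet1-deficient ones. Tet1-deficient replicate 1 was the third highest library for Ttr, Clic6, Otx2 and Slc4a5. Wild-type replicate 2 was the lowest library for Ttr, Folr1, Clic6, Otx2 and Slc4a5. Slc4a5 in particular rests on values of 0.0117 to 0.0673 FPKM in the low libraries, and the number of fragments behind each is unknown.

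The members differed in their spread. Ttr, Folr1, Clic6, Aqp1, Otx2 and Slc4a5 exceeded 3-fold between the highest and the lowest library in both genotypes. That was so for 1.77% of the 16482 genes above 0 in all 6 libraries, for 0.296% of those with a mean of at least 1 FPKM and for 6.41% of those under it. Ttr belongs to the more abundant class and the other 5 to the less abundant one. The spread of Ttr was known when the members were selected, so its place among the 3-fold genes is no result. The limit of 3-fold was itself chosen after the values were seen, so these shares are a description and test nothing. The member nearest to that limit from above was Aqp1, with ratios of 3.41 and 6.16, and no member lay close below it: Prlr had 1.37 and 2.19, and Enpp2 1.40 and 2.05. Kl and Sostdc1 stayed under 2-fold in both genotypes.

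**Figure D2:**
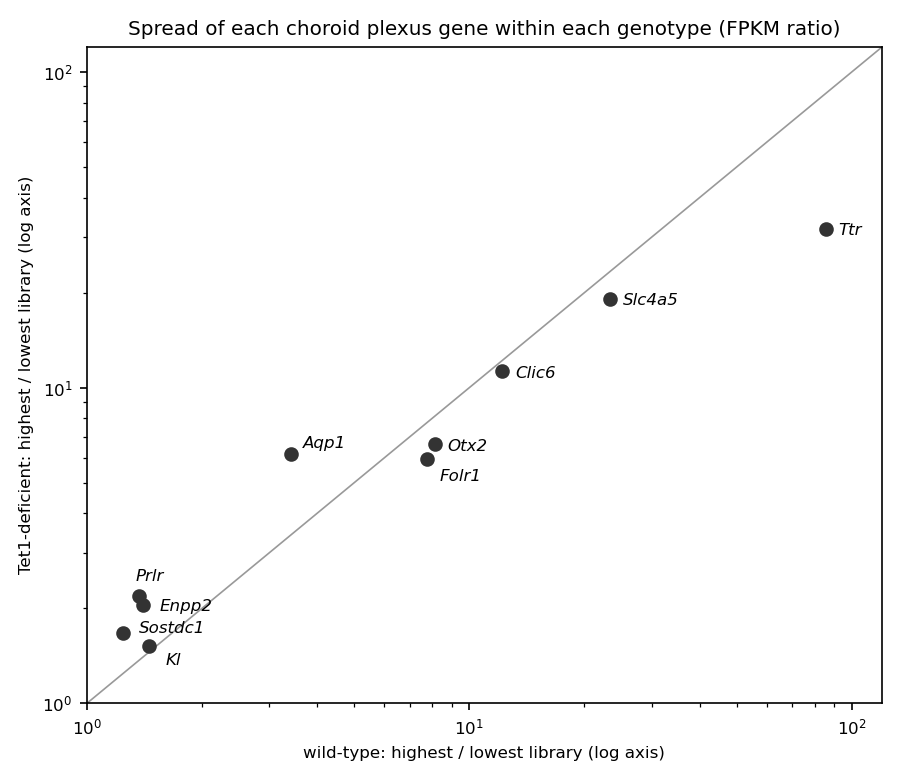
Ratio of the highest to the lowest library for each member, in wild-type (horizontal, log axis) and in Tet1-deficient hippocampus (vertical, log axis), 3 libraries each; the line marks equal ratios. Ttr, Slc4a5, Clic6, Otx2, Folr1 and Aqp1 exceed 3-fold in both genotypes, and Enpp2, Prlr, Kl and Sostdc1 lie at 2.19-fold or below.

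The 2 libraries with the most Ttr did not hold the members in the same proportion. Tet1-deficient replicate 2 had 0.634 times the Ttr of wild-type replicate 3. It nevertheless had more of 8 members, with ratios of 2.31 for Slc4a5, 1.80 for Aqp1, 1.61 for Clic6, 1.41 for Enpp2, 1.32 for Prlr, 1.27 for Otx2, 1.26 for Sostdc1 and 1.25 for Folr1. Kl was lower, with a ratio of 0.832. Across all genes above 0, 47.5% were higher in Tet1-deficient replicate 2. Each of these ratios sets 1 library against 1 of another genotype and has no replicate check.

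**Figure D3:**
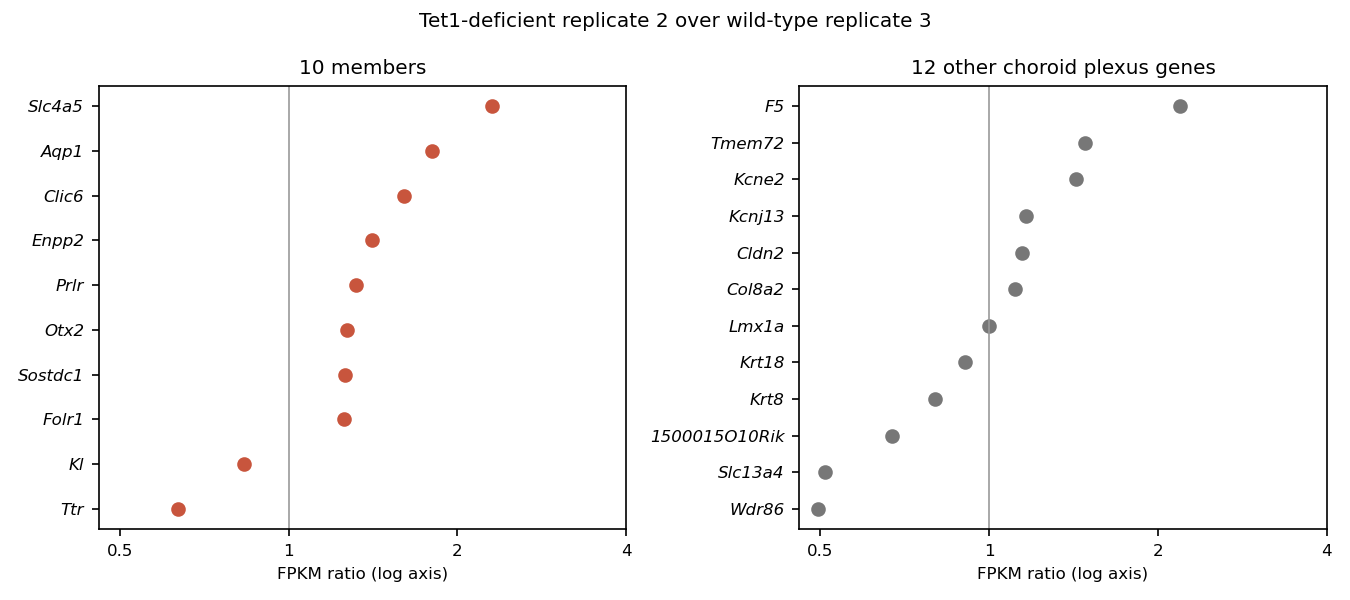
FPKM in Tet1-deficient replicate 2 divided by FPKM in wild-type replicate 3 (horizontal, log axis; the line marks equal levels), for the 10 members and for the 12 other choroid plexus genes that were highest in these libraries and differed over 3-fold in both genotypes. Ttr lies at 0.634 and Slc4a5 at 2.31.

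A wider list of 60 other genes known from choroid plexus epithelium, of which 58 were in the table, had the same highest library of each genotype for many of its genes. Wild-type replicate 3 and Tet1-deficient replicate 2 were highest for 37 of 58, against 16.8% of all genes above 0, and for 14 of the 25 with a mean of at least 1 FPKM, against 17.2% of such genes. That mean is taken over all 6 libraries, so a gene can pass through its level in this pair alone. Calml4, for example, averaged 1.00 FPKM and had 0.299 to 1.08 FPKM outside the pair. The count of 14 is thus a description. They were the highest 2 of all 6 libraries for 32 of 58, against 11.8% of all genes above 0, and the order of the other 4 libraries differed between genes. Of the 50 above 0 in all libraries, 12 also differed over 3-fold in both genotypes (0.534% of all such genes). Of the 12, 10 averaged under 1 FPKM, and the share of 0.534% is not split by level. This 3-fold class too was chosen after the values were seen. Whichever library was highest, a spread over 3-fold was commoner under 1 FPKM (6.41% of genes) than at or above it (0.296%). Kcnj13, the potassium channel gene of the apical membrane, measured 0.835, 0.103 and 1.89 FPKM across wild-type libraries against 0.367, 2.20 and 0.113 FPKM across Tet1-deficient ones. Kcne2, a potassium channel subunit gene, measured 0.127, 0.177 and 0.684 FPKM across wild-type libraries against 0.118, 0.978 and 0.111 FPKM across Tet1-deficient ones. Cldn2, of the leaky tight junctions of this epithelium, measured 0.329, 0.253 and 0.921 FPKM across wild-type libraries against 0.506, 1.05 and 0.292 FPKM across Tet1-deficient ones. The other 9 were Tmem72, Slc13a4, Krt8, Krt18, Lmx1a, Col8a2, F5, Wdr86 and 1500015O10Rik, which encodes the secreted peptide precursor augurin. Of these 12 genes, 6 were higher in Tet1-deficient replicate 2 than in wild-type replicate 3, with ratios from 0.495 to 2.19 over the 12.

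Some genes of the wider list did not share the pattern, among them Slc12a2 and Htr2c, named after their values were seen. Slc12a2, a sodium, potassium and chloride cotransporter gene, measured 19.6, 15.4 and 15.6 FPKM across wild-type libraries against 15.8, 16.1 and 16.1 FPKM across Tet1-deficient ones. Htr2c, a serotonin receptor gene known for its high level in choroid plexus, measured 13.9, 8.92 and 9.22 FPKM across wild-type libraries against 9.21, 9.41 and 9.61 FPKM across Tet1-deficient ones. Both were highest in wild-type replicate 1.

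Genes with the pattern most like Ttr were taken by Pearson's r of log2(FPKM + 1) over the 6 libraries, as a ranking among 4047 genes outside the members with a mean of at least 1 FPKM and a standard deviation of at least 0.2. Since Ttr fell into separate clusters of 2 and 4 libraries, r is set by that pair and no test of it is given. The mean is taken over all 6 libraries, so a gene can enter the ranking through its level in that pair alone. In the wider list, ranked without the limit on standard deviation, the highest were 1500015O10Rik, Ace, Calml4, Cgnl1, Lbp, Igfbp2, Bmp7 and Slc2a12. Their r ran from 0.804 to 0.968. Bmp7 and Slc2a12, at the low end, were higher in wild-type replicate 1 than in Tet1-deficient replicate 2. 1500015O10Rik measured 1.98, 0.751 and 6.29 FPKM across wild-type libraries against 1.28, 4.23 and 0.743 FPKM across Tet1-deficient ones. Ace, the angiotensin-converting enzyme gene, measured 2.05, 1.88 and 3.88 FPKM across wild-type libraries against 1.51, 3.71 and 1.78 FPKM across Tet1-deficient ones. Among all genes the highest 10 were Anxa2, 1500015O10Rik, Esam, Hspb1, Anxa3, Serpinh1, Ifi35, Zic1, Cast and Tnfrsf25, with r from 0.932 to 0.985. Anxa2, an annexin gene, measured 5.26, 4.36 and 8.53 FPKM across wild-type libraries against 5.32, 7.34 and 5.06 FPKM across Tet1-deficient ones. Esam, an adhesion molecule gene of vessel endothelium, measured 2.94, 2.73 and 4.60 FPKM across wild-type libraries against 2.71, 4.22 and 2.46 FPKM across Tet1-deficient ones. Zic1 also stands in the thalamic list below. The spread of these genes between libraries was far smaller than that of Ttr.

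Markers of neighbouring tissue were often highest in the same libraries as the members. Of 11 endothelial markers 8 were highest of their genotype in the libraries with the most Ttr, as were 9 of 14 meningeal markers, against 16.8% of all genes above 0. The lists differed in a stricter count. These were the highest 2 of all 6 libraries for 7 endothelial and 0 meningeal markers, against 11.8% of all genes above 0. The endothelial sum was 68.4, 50.9 and 84.7 FPKM across wild-type libraries against 53.3, 75.9 and 44.2 FPKM across Tet1-deficient ones. Cldn5, of the tight junctions of brain vessels, measured 5.57, 4.21 and 8.78 FPKM across wild-type libraries against 2.82, 6.62 and 3.90 FPKM across Tet1-deficient ones. The 14 markers of meningeal fibroblasts, which also populate the choroid plexus stroma, summed to 112, 51.0 and 129 FPKM across wild-type libraries against 58.2, 68.3 and 46.4 FPKM across Tet1-deficient ones. The meningeal sum was therefore highest of its genotype in both libraries with the most Ttr, but wild-type replicate 1, with 11.7 FPKM of Ttr, had a larger sum than Tet1-deficient replicate 2, with 187 FPKM of Ttr. The part of vessel and meningeal tissue in the levels of the members was not tested.

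Ependymal cells are the ciliated lining of the ventricle. Their 15 measured markers summed to 19.1, 20.0 and 25.5 FPKM across wild-type libraries against 24.0, 25.0 and 23.5 FPKM across Tet1-deficient ones. The sum was highest in the libraries with the most Ttr, by a small margin among the Tet1-deficient ones, while 2 of the 15 genes were highest of their genotype there, a share near the 16.8% of all genes above 0. Foxj1, the regulator of motile cilia, measured 1.57, 1.92 and 2.63 FPKM across wild-type libraries against 1.64, 2.53 and 2.60 FPKM across Tet1-deficient ones. The thalamus also borders the hippocampus, and its 12 markers summed to 53.8, 60.7 and 63.1 FPKM across wild-type libraries against 45.8, 65.5 and 55.6 FPKM across Tet1-deficient ones. Calb2 had the highest mean of the 12, 4.79 in wild-type and 4.66 in Tet1-deficient libraries on the log2(FPKM + 1) scale, so the sum leans on it. Gbx2 (0.0341 and 0.0260) and Pou4f1 (0.0132 and 0.0181) were near 0 on that scale. The thalamic sum too was highest in the libraries with the most Ttr. Of the 12 genes 4 were highest of their genotype there, against 16.8% of all genes above 0. So were 3 of 10 markers of hippocampal neurons, 2 of 8 of microglia and 2 of 7 of astrocytes. Single thalamic genes differed: Zic1 measured 2.55, 2.15 and 4.57 FPKM across wild-type libraries against 1.97, 4.33 and 1.80 FPKM across Tet1-deficient ones. Tcf7l2 measured 3.01, 2.38 and 2.07 FPKM across wild-type libraries against 2.58, 2.14 and 1.76 FPKM across Tet1-deficient ones, highest in the first replicate of either genotype. The part of ependymal and thalamic tissue in the levels of the members was not tested.

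**Figure D4:**
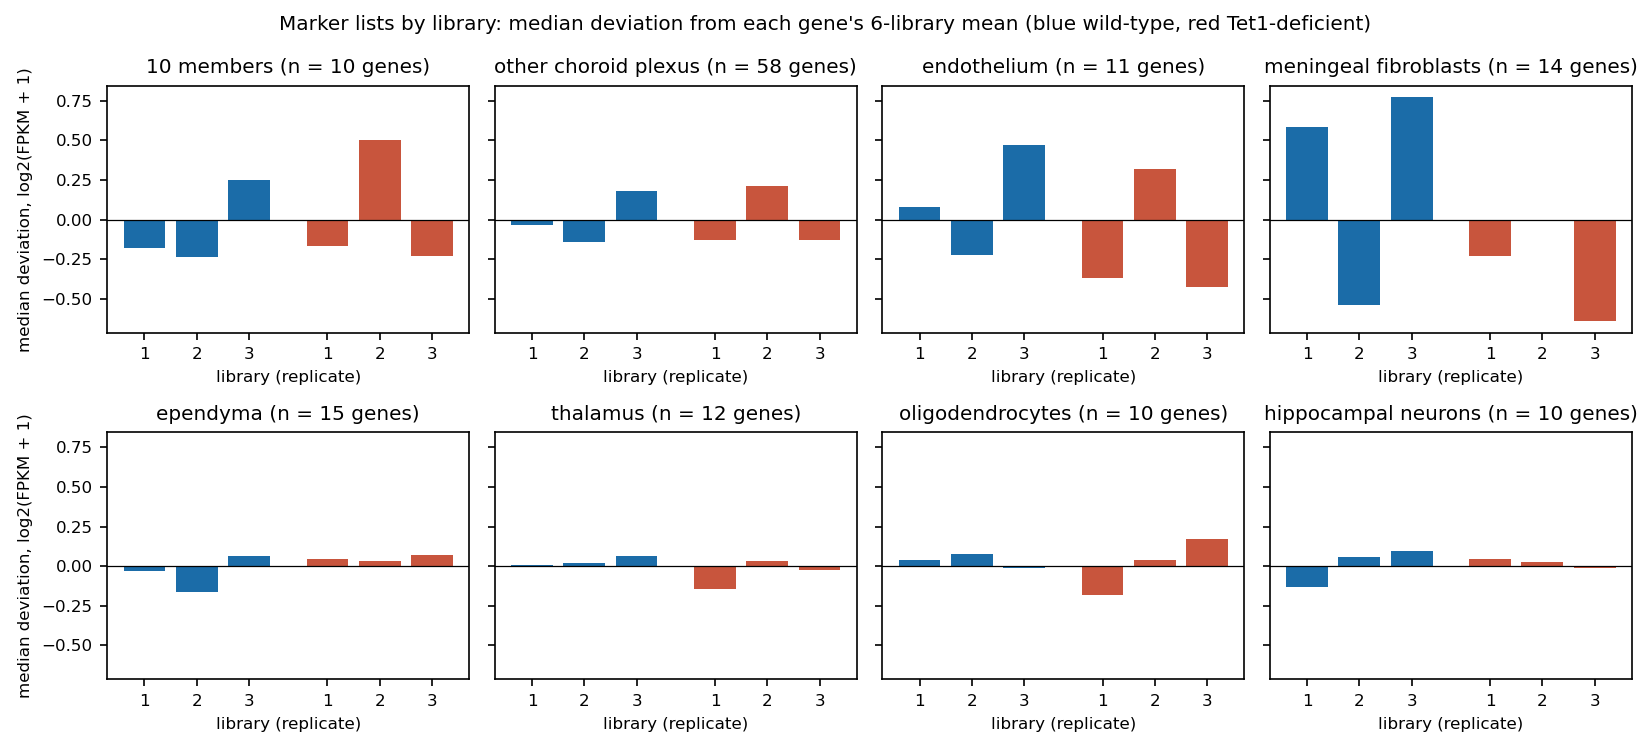
Median deviation of the genes of each marker list from their own mean over the 6 libraries, on the log2(FPKM + 1) scale, with 1 bar per library (blue wild-type, red Tet1-deficient). The members, the wider choroid plexus list and the endothelial list are highest in wild-type replicate 3 and Tet1-deficient replicate 2, the meningeal list in wild-type replicates 1 and 3, and the thalamic list again in the first pair, by small margins; medians of the ependymal, thalamic, oligodendrocyte and hippocampal lists run from −0.18 to 0.17, about as far as those of the wider choroid plexus list (−0.14 to 0.21).

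No member passed the comparison of genotypes that the design implies. Of the 10 members 0 passed an adjusted p of 0.05 in limma, 0 had an unadjusted p under 0.05, and 4 of 12533 tested genes passed (0.0319%). Ttr averaged 103 ± 166 FPKM (SD, n = 3) with Tet1 against 70.1 ± 101 FPKM (SD, n = 3) without. Its difference on the log2(FPKM + 1) scale, Tet1-deficient minus wild-type, was 0.18 with an SE of 1.76 and a 95% interval from −3.99 to 4.35 (limma adjusted p 1.00). The mean in FPKM and the mean of the logarithms thus pointed in opposite directions. Without wild-type replicate 3 the log2 difference of Ttr was 1.94, and without Tet1-deficient replicate 2 it was −1.17.

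The other members tested at a mean of at least 1 FPKM had narrower intervals. Enpp2 averaged 66.2 ± 11.1 FPKM with Tet1 against 72.8 ± 30.6 FPKM without (SD, n = 3), a log2 difference of 0.07 (95% interval −0.59 to 0.73). Kl averaged 4.22 ± 0.773 and 3.36 ± 0.716 FPKM (SD, n = 3), with a log2 difference of −0.26 (−0.64 to 0.12), the only member with a lower log2 mean in Tet1-deficient hippocampus. Sostdc1 averaged 1.86 ± 0.222 and 2.08 ± 0.516 FPKM (SD, n = 3), with a log2 difference of 0.09 (−0.25 to 0.44).

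Members under 1 FPKM were read from a second fit, over the 19123 genes above 0, of which 4 passed (0.0209%). Their log2 differences ran from 0.0056 for Prlr to 0.25 for Clic6, and the pseudocount of 1 FPKM understates changes at such levels. The intervals reached from −0.83 to 1.33 for Clic6, from −0.65 to 0.87 for Folr1, from −0.41 to 0.68 for Otx2, from −0.39 to 0.60 for Aqp1, from −0.31 to 0.61 for Slc4a5 and from −0.23 to 0.24 for Prlr. With both libraries of most Ttr left out, as chosen once the values were known, 0 of the 10 members passed. These intervals do not show that the genotypes are alike in choroid plexus transcripts. In the wider list 0 of 25 tested genes passed in limma and 0 had an unadjusted p under 0.05, 8 were higher and 17 lower without Tet1, with a median log2 difference of −0.10 against 0.0055 over all tested genes. Over all 58 genes 27 were higher and 31 lower, with a median of −0.012, and without wild-type replicate 3 the median of the tested genes was 0.025. Markers of other cells leaned the same way: all 12 tested meningeal markers were lower without Tet1 (median −0.65, 2 with an unadjusted p under 0.05 and 0 called), as were 10 of 11 endothelial markers (median −0.24, 0 called). Their part in the values of the wider list was not tested.

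**Figure D5:**
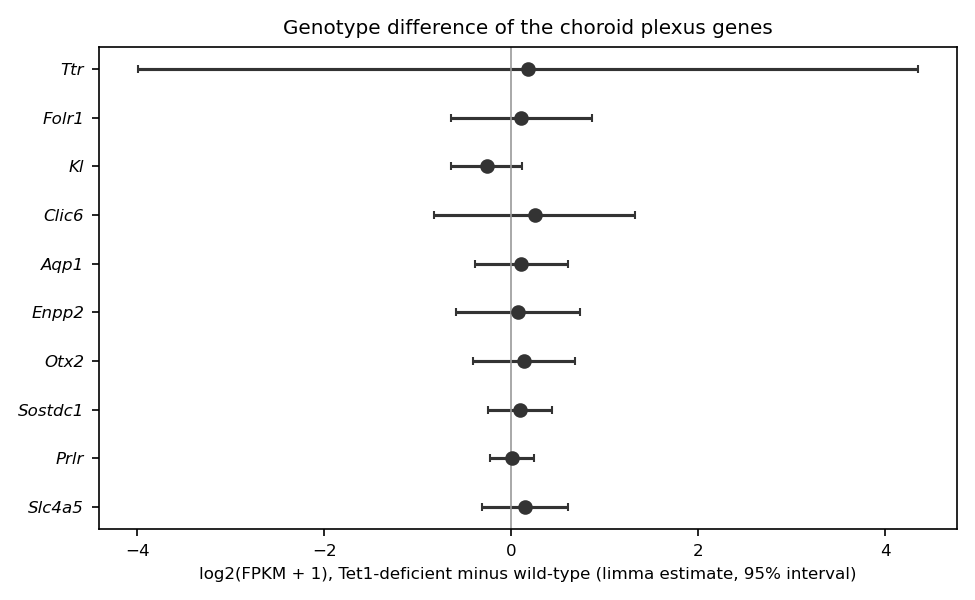
Limma estimate of the genotype difference of each member on the log2(FPKM + 1) scale (points, Tet1-deficient minus wild-type) with its 95% interval (bars), n = 3 libraries per genotype. All 10 intervals include 0, and that of Ttr runs from −3.99 to 4.35.

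The genotype calls elsewhere were also fitted with the Ttr level as a term in the model, over 12504 genes outside the members and the wider list. Without the term limma called Ndn, Gm10406, Gm3558 and Gm3893 (adjusted p 0.00852 each). With the term 0 genes passed, and 190 had an unadjusted p under 0.05 against 171 without it. The log2 differences of the 4 genes hardly moved, from −1.13 to −1.13 for Ndn, 1.29 to 1.29 for Gm10406, 1.16 to 1.16 for Gm3558 and 1.69 to 1.68 for Gm3893, while their adjusted p rose to between 0.0581 and 0.0722. The term takes up 1 of 4 residual degrees of freedom, and the 3 Gm genes have near-identical copies that can share reads.

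Positions are given for 9 members (mm10, GENCODE M21), and these 9 are annotated as protein-coding. Folr1 occupies 101858331 to 101870788 on chromosome 7, Clic6 92485736 to 92541243 on chromosome 16, Otx2 48657677 to 48673819 on chromosome 14 and Enpp2 54838901 to 54952892 on chromosome 15. On chromosome 6 lie Aqp1 (55336432 to 55348555) and Slc4a5 (83219828 to 83304945), and Kl (150952607 to 150993817) lies on chromosome 5, Sostdc1 (36314139 to 36318452) on chromosome 12 and Prlr (10177238 to 10349180) on chromosome 15. Otx2os1 runs opposite Otx2, Anapc15 opposite Folr1 and Gm26684 opposite Enpp2. On the same strand Gm21973 overlaps Prlr, 2410124H12Rik overlaps Clic6 and Gm49154 overlaps Otx2. As no strand setting is stated, reads from opposite partners may be mixed, and those from same-strand partners may be mixed under any setting.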

How the data were processed

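RNA of 6 whole hippocampi, 3 wild-type and 3 Tet1-deficient, was sequenced, and the authors deposited gene-level FPKM values with 1 column per library. TopHat2 2.0.9, Cufflinks 2.1.1 and the build mm10 are named in the submitters' processing notes. The sources used here give no annotation, strand setting, multi-mapping rule or filter. Among 362 genes under 0.03 FPKM in the first library of both genotypes, at most 5 shared a ratio to 3 decimals, so whole reads could not be recovered, depth is unknown and no count test was run. At most 1 nonzero value was identical between any pair of libraries.

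Genotypes were compared with limma 3.58.1 in R 4.3.3 on log2(FPKM + 1) with an intensity trend, two-sided, with Benjamini-Hochberg adjustment over 12533 genes averaging at least 1 FPKM; members under it came from a fit to all 19123 genes above 0. The fit was tested on simulated data. Each p-value sets the genotype difference against the spread between libraries of a genotype, estimated in part from all genes. Replicate numbers are in accession order and pair nothing. Named genes were the 10 members, the 8 wider-list genes and 10 genes overall with the highest r with Ttr, set defining markers and Tet1; Kcnj13, Kcne2, Cldn2, Slc12a2, Htr2c, Eif3j1, Eif3j2, Samd4, Hamp and Snord17, and the 3-fold class with its genes, were chosen after their values were seen. Members and lists were chosen with earlier results of these data known. Correlations of members with Ttr were planned but not given, since the libraries fell into clusters. Alternatives were another pseudocount (0.1 FPKM), no filter, median-of-ratios and quantile scaling, no trend, and libraries left out.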

Additional observations from a re-analysis of the deposited data

How the results depend on the processing

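Under 13 alternative settings 0 of the 10 members and 0 of the wider list passed, and the lowest of the 130 adjusted p-values of members in limma was 0.876. Of the log2 differences, 20 of 130 changed sign. With 1 library left out they ran from −1.17 to 1.94 for Ttr, −0.12 to 0.22 for Aqp1, −0.18 to 0.59 for Clic6, −0.25 to 0.26 for Enpp2, −0.18 to 0.36 for Folr1, −0.056 to 0.33 for Otx2, −0.10 to 0.079 for Prlr, −0.065 to 0.26 for Slc4a5, −0.0079 to 0.24 for Sostdc1 and −0.39 to −0.16 for Kl. With a pseudocount of 0.1 FPKM Prlr had −0.014. In the 4 libraries without the most Ttr the differences of Aqp1, Enpp2 and Prlr were −0.0045, −0.14 and −0.066. In the 4 libraries together on the first principal component those of Ttr and Sostdc1 were −0.014 and −0.011. Both sets of 4 were chosen after the data were seen, and the cause was not tested. The ratio of highest to lowest Ttr ran from 50.3 (without wild-type replicate 2) to 85.5 with 1 library left out, and was 54.3 without wild-type replicate 3. With Ttr as a term, 0 to 1 genes passed with 1 library left out (1 without wild-type replicate 1, wild-type replicate 2 or Tet1-deficient replicate 3), 4 passed with quantile normalization and 4 without the term. With either rescaling 9 members in place of 10, and 36 wider-list genes in place of 37, were highest in the pair with the most Ttr. No paired analysis was possible because the numbers in the titles, which the labels do not explain, are shared between the genotypes only for 1 library of each (number 4). The r with Ttr was used only to rank genes, and no alternative setting was run for it. The median of the wider list was −0.25 when Tet1-deficient replicate 2 was left out and 0.025 when wild-type replicate 3 was, the extremes with 1 library removed, and 0.021 in the 4 libraries together on the first principal component. Unknown depth limits every value under 1 FPKM.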

Other observations

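The library with the closest profile to each library was of the other genotype. Over genes averaging at least 1 FPKM, without the members, Pearson's r of log2(FPKM + 1) across genes was 0.983 between wild-type replicate 1 and Tet1-deficient replicate 1, 0.990 between wild-type replicate 2 and Tet1-deficient replicate 3, and 0.990 between wild-type replicate 3 and Tet1-deficient replicate 2, and each of the 6 libraries had its highest r in these pairs. Ttr followed the same pairs, with 11.7 and 17.7 FPKM, 3.44 and 5.85 FPKM, and 294 and 187 FPKM. Genes are not independent replicates, the labels name no such pairs, and their origin was not tested.

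A gene with no known tie to choroid plexus followed Ttr in the opposite direction, and it was chosen after its values were seen. Eif3j1, a translation initiation factor subunit gene on chromosome 2 (122028546 to 122056598, mm10), had the lowest r with Ttr (−0.987). It measured 6.26, 21.6 and 0.00736 FPKM across wild-type libraries against 5.31, 0.124 and 20.8 FPKM across Tet1-deficient ones. Its paralog Eif3j2 measured 22.0, 1.39 and 23.6 FPKM across wild-type libraries against 25.8, 25.6 and 4.81 FPKM across Tet1-deficient ones, so the paralog was low in the pair where Eif3j1 was high. Near-identical copies can share reads, and these values are uncertain.

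Few genes set the pair with the most Ttr apart as sharply. Of 12533 genes averaging at least 1 FPKM, 4 were more than 2-fold above every other library in both (Ttr, 1500015O10Rik, Hspb1 and Samd4), and 3 were under every other library by as much (Eif3j1, Hamp and Snord17). Samd4, a gene of an RNA-binding repressor of translation, measured 3.02, 3.70 and 9.63 FPKM across wild-type libraries against 2.79, 11.9 and 3.43 FPKM across Tet1-deficient ones.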
